A study of Mus musculus with 8 samples.

Results

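The genes described here encode the nuclear-encoded subunits of the mitochondrial respiratory chain and of ATP synthase, together with a family of complex I assembly factors. They were chosen by symbol in the probe annotation: every name starting with Nduf, Uqcr, Cox4, Cox5, Cox6, Cox7, Cox8 or Atp5, and Sdha, Sdhb, Sdhc, Sdhd, Cyc1 and Cycs. This gave 92 of the 18194 genes measured. Of these, 84 were subunits, cytochrome c included, and 8 were Ndufaf genes, whose products help to build complex I without being part of it. The subunits divided into 34 of complex I, 4 of complex II, 10 of complex III with cytochrome c, 19 of complex IV and 17 of ATP synthase. Ndufa4 and Ndufa4l2 were counted with complex IV, where the Ndufa4 protein is now placed, and so was Cox7a2l, a factor that links complexes III and IV into supercomplexes.

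The respiratory chain sits in the inner mitochondrial membrane. Complexes I and II take electrons from NADH and from succinate and pass them through coenzyme Q to complex III, cytochrome c and complex IV, which reduces oxygen, and the protons pumped on the way drive ATP synthase. In fat cells the chain oxidises fuel for ATP and is also a source of superoxide, and a small group of its subunits is encoded in mitochondrial DNA while all others are made from nuclear genes and imported.

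Expression was measured on Affymetrix Mouse Genome 430 2.0 arrays in 3T3-L1 cells, mouse fibroblasts that can be turned into adipocytes in culture, under 3 treatments that make such cells insulin resistant. The CI group (2 arrays) received insulin chronically, the TNF group (3 arrays) the cytokine tumour necrosis factor, and the Dex group (3 arrays) the glucocorticoid dexamethasone. All 8 samples also received MnTBAP, a manganese porphyrin antioxidant, in the final 6 h. The study cites earlier work in which MnTBAP restored the insulin response, read as movement of the glucose transporter GLUT4, in each model. The arrays do not measure that response. Untreated cells and cells without MnTBAP were not analysed here, so genes lower in TNF than in CI may as well have been raised by the insulin.

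The labels give the tissue as preadipocytes and the source as adipose cells. The fat cell product Adipoq stood at 14.31 to 14.39 on the log2 scale on all arrays, against an array maximum of 14.45 to 14.57, while the preadipocyte marker Dlk1 was also well detected, at 12.00 to 13.10. The doses and durations of the 3 agents are not given in the sources used here. Separate cultures for the arrays of a group are not mentioned in the labels. The p-values therefore describe the spread among these samples alone, and that spread may be technical. Array median intensities lay between 124.7 and 131.0. With 2 or 3 arrays in a group, precision is limited by their number. Values below are log2 intensities, and differences are log2 differences with the standard error (SE) of a limma fit to all 8 arrays and 18194 genes. A gene was called when its adjusted p (Benjamini-Hochberg over all genes) was under 0.05 and its absolute difference over 0.5. In bulk RNA, fewer cells of a type and less RNA per cell cannot be told apart.

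The subunits were lower in TNF than in CI as a group. Their mean was 11.98 and 12.03 on the 2 CI arrays, 11.56, 11.77 and 11.68 on the 3 TNF arrays, and 11.90, 11.90 and 11.99 on the 3 Dex arrays. The TNF arrays were thus the lowest of the 8, the groups TNF and CI did not overlap, and Dex lay at or just under CI. The median subunit differed by -0.32 in TNF against CI, or 80% of the CI level, where the median of all genes differed by 0.03.

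In TNF against CI, 17 of 84 subunits (20.2%) were called lower, where 5.23% of all genes were. None was called higher, against 3.00% of all genes, and at an unadjusted p under 0.05 in limma 2 were higher and 68 lower. On adjusted p alone 56 subunits (66.7%) were lower and 1 higher, against 13.3% of all genes lower. Every TNF array was below both CI arrays in 70 subunits (83.3%), against 24.7% of all genes. Most differences were therefore small, of one sign, and below the 0.5 needed for a call. Shares over all genes, here and below, include dimmer genes and were not matched to the subunits for signal. Of the 84 subunits 77 lay above the signal of the median gene (7.92). At an unadjusted p the share over all genes was not counted, here or below. The count of calls depended on 1 array: TNF replicate 1 was the lowest TNF array in 73 subunits, and without it 10 subunits were called lower and the median difference was -0.26. The 7 subunits that then fell short of 0.5 were Atp5o, Ndufa4, Ndufab1, Ndufb2, Ndufb3, Ndufb6 and Ndufc1, at -0.47, -0.47, -0.46, -0.47, -0.49, -0.46 and -0.45.

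**Figure D1:**
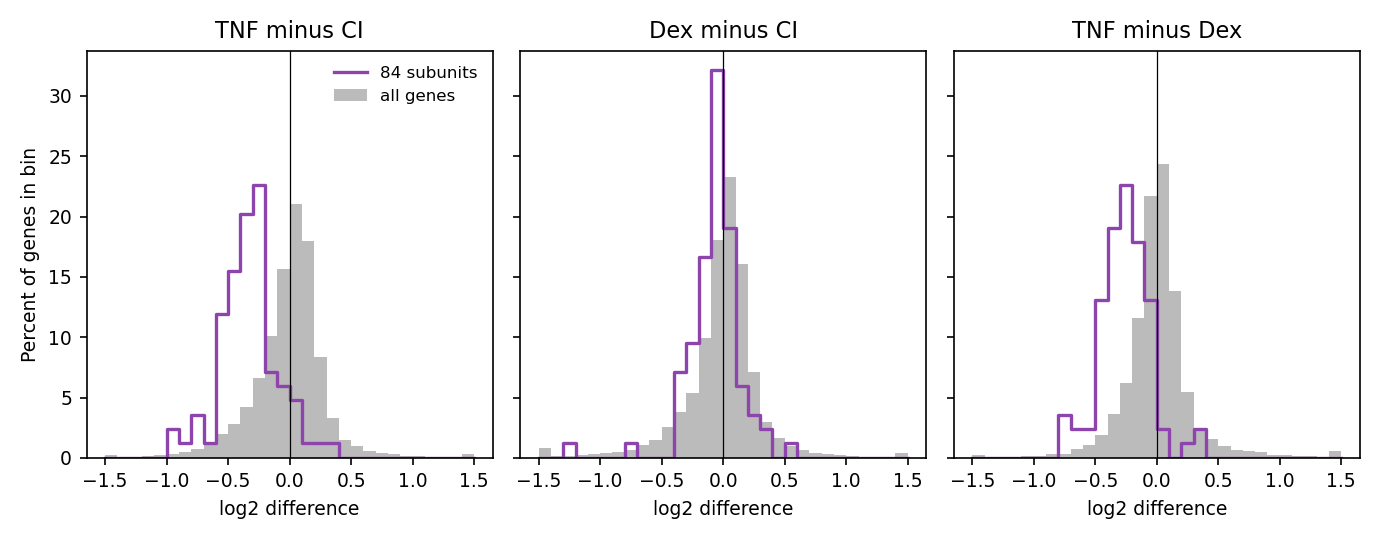
Share of genes (percent, vertical axis) in bins of 0.1 of the log2 difference (horizontal axis) for each pair of models, named above its panel; grey bars are all 18194 genes, the purple line the 84 subunits, and the end bins hold everything beyond 1.5. The subunits sit left of zero in both comparisons that involve TNF (medians -0.32 and -0.26), and near zero for Dex minus CI (median -0.05).

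The probes of the array lie towards the 3′ end of transcripts, and the 3′ to 5′ difference of 2 of 3 control genes was highest in TNF by group mean. For beta-actin it was 0.76 ± 0.06 in TNF (SD, n = 3), against 0.60 ± 0.09 in CI (n = 2) and 0.58 ± 0.15 in Dex (n = 3), and for pyruvate carboxylase 2.18 ± 0.32, 1.89 ± 0.22 and 1.77 ± 0.14. For Gapdh it was highest in CI, at 0.15 ± 0.01, against 0.11 ± 0.03 in TNF and 0.08 ± 0.02 in Dex. With the value of beta-actin as a covariate in the fit, 21 subunits were called lower in TNF against CI and the median was -0.34. Markers of other cells moved with TNF too, and some of them with Dex. Of 8 preadipocyte and fibroblast markers 2 were called higher in TNF against CI (Fn1 and Pdgfrb), where 3.00% of all genes were, and 0 lower in limma (1 lower, Thy1, at an unadjusted p under 0.05), where 5.23% were. In TNF against Dex 6 of the 8 were called higher, where 4.14% of all genes were, with a median of 0.91, and in Dex against CI 3 were called lower, where 5.67% were. Of the 6, Pdgfra and Dlk1 were at 0.34 and 0.34 with the median of their probe sets, and Pdgfra missed the threshold in most leave-one-out fits too. With probe sets lacking a suffix for possible cross-hybridisation Dlk1 was at -0.16 in TNF against Dex. Of the 3 called lower in Dex against CI, Dlk1 (-0.70) was at -0.13 with such probe sets and -0.41 with the median. The mean over the 8 markers was 10.97 to 11.01 in CI, 11.21 to 11.44 in TNF and 10.37 to 10.50 in Dex. Of 8 adipocyte markers 4 were called lower (Cidec, Lep, Pparg and Slc2a4) in TNF against CI, where 5.23% of all genes were. The mean over the 8 was 12.42 to 12.53 in CI, 12.04 to 12.06 in TNF and 12.27 to 12.36 in Dex. In Dex against CI 3 of the 8 were called lower and 1 higher, where 5.67% and 3.33% of all genes were. Lep was among the lower ones there (-0.89, or -0.43 without CI replicate 1). In TNF against CI Lep passed the threshold only with CI replicate 1 in the fit (-0.48 without it). Pparg missed it there when CI replicate 1, TNF replicate 2 or TNF replicate 3 was left out (-0.49, -0.48 and -0.49) and under quantile normalization (-0.47). Of 8 macrophage markers 2 were called higher in TNF against CI (Cd14 and Lyz2), where 3.00% of all genes were. In Dex against CI 1 was called higher, Cd14 (0.98), where 3.33% of all genes were. The mean over these 8 was 6.90 to 6.93 in CI, 7.20 to 7.24 in TNF and 6.99 to 7.06 in Dex. Ptprc, the defining marker of leukocytes, stayed between 4.46 and 4.77 on all arrays. The part of these shifts in the subunit differences was not tested.

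**Figure D2:**
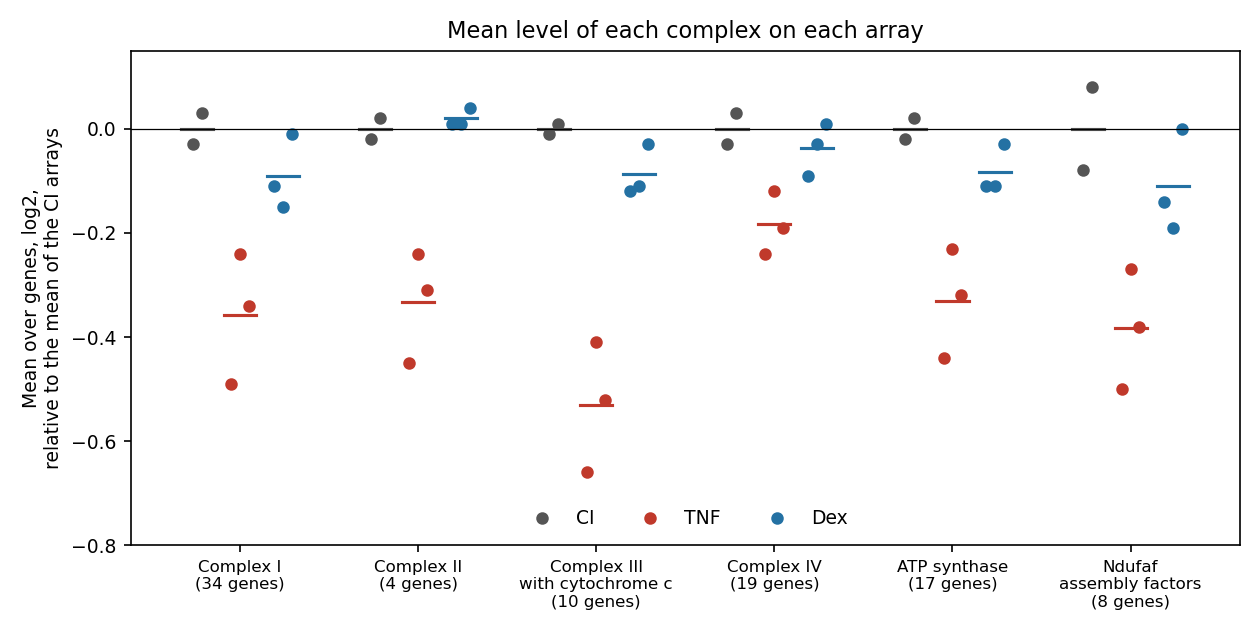
Mean log2 value over the genes of each complex on each array, relative to the mean of the CI arrays (vertical axis), for CI (grey), TNF (red) and Dex (blue); points are arrays and bars are group means. The TNF points lie lowest in every complex, furthest in complex III (-0.66, -0.41 and -0.52) and least far in complex IV (-0.24, -0.12 and -0.19). The complex IV mean includes several dim genes.

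Complex III, which moves electrons from coenzyme Q to cytochrome c, held the largest TNF differences by median. All 10 of its genes, cytochrome c included, were lower in TNF than CI on adjusted p alone, where 13.3% of all genes were. In all 10 every TNF array was below both CI arrays, against 24.7% of all genes, and 5 (50%) were called lower, against 5.23%. The median difference of the 10 was -0.52, against -0.33 in complex I, -0.35 in complex II, -0.19 in complex IV and -0.30 in ATP synthase. The order of these medians is a description with no test, and the complex IV median includes the dim genes described below.

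Uqcrc2, a core protein of complex III, stood at 12.04 and 12.04 in CI, 11.22, 11.17 and 11.11 in TNF, against 11.75, 11.55 and 11.80 in Dex. All TNF arrays were below all Dex arrays, and those below both CI arrays. It fell by 0.87 (SE 0.09, limma adjusted p = 5.4e-05) in TNF against CI, to 54.7% of the CI level, and by 0.53 (SE 0.08, adjusted p = 0.000483) in TNF against Dex. In Dex against CI it differed by -0.34 (adjusted p = 0.0164), short of a call. The TNF against Dex difference was -0.48 without Dex replicate 3 and -0.49 under quantile normalization.

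Uqcr11, a small accessory subunit, was more variable, at 11.92 and 12.06 in CI, 10.92, 11.47 and 11.22 in TNF, with 11.84, 11.90 and 12.18 in Dex. CI and Dex overlapped and TNF lay under both. Uqcr11 fell by 0.79 (SE 0.15, adjusted p = 0.00286) against CI and fell by 0.77 (SE 0.13, adjusted p = 0.00147) against Dex. Its promoter is shown because Uqcr11 had the largest TNF against Dex difference of all 92 genes. The sequence is the 250 bases before the RefSeq start on GRCm38.p6, 5′ to 3′ along the gene, and capitals mark a match to CCGGAAG, the core of the site bound by ETS factors such as GABPA, 66 bases before the start.

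Uqcr11 (chr10:80406822-80407071, minus strand): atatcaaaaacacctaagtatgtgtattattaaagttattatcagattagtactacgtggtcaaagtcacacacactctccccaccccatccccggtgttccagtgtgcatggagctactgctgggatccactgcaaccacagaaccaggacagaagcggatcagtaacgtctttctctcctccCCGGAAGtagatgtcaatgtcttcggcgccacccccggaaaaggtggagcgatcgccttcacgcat

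The core subunits Cyc1 and Uqcrfs1 were both called lower in TNF against CI. Cyc1, which carries the cytochrome c1 haem, had 13.23 and 13.19 in CI, 12.51, 12.72 and 12.65 in TNF, against 13.08, 13.12 and 13.17 in Dex. It fell by 0.58 (SE 0.08, adjusted p = 0.000423) in TNF against CI. Uqcrfs1, the Rieske iron-sulphur protein, had 13.09 and 12.99, then 12.37, 12.54 and 12.47, then 12.94, 12.91 and 13.01 in the same order, and fell by 0.58 (SE 0.08, adjusted p = 0.000423). In both genes the TNF arrays lay apart from all others. Uqcrc1, the partner core protein of Uqcrc2, differed by -0.46 (adjusted p = 0.00125) and by 0.01 in Dex against CI, and Cycs, cytochrome c itself, by -0.32 (adjusted p = 0.00949), where its other bright probe sets, with means of 13.3 and 12.44, gave -0.53 and -0.84. Uqcrq, a small quinone-site subunit, read 12.54 and 12.71, then 11.66, 12.21 and 12.04, then 12.54, 12.64 and 12.69, and was called lower in TNF against CI at -0.66 (adjusted p = 0.00482). That call rested on the chosen probe set and array set: the other 3 probe sets of Uqcrq, all dimmer than the median gene, gave 0.06, 0.02 and 0.11, and without CI replicate 2 the difference was -0.57 with an adjusted p of 0.0635.

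Complex I, the NADH dehydrogenase, had 8 of 34 genes (23.5%) called lower in TNF against CI, where 5.23% of all genes were. The difference was negative in 33 of 34, against 44.8% of all genes. The 6 measured core subunits, most of which carry redox centres, and the 28 accessory subunits had like medians, -0.31 and -0.33. Ndufs1, the largest iron-sulphur subunit, stood at 11.46 and 11.39 in CI, 10.57, 10.79 and 10.75 in TNF, against 11.42, 11.37 and 11.42 in Dex. Only the TNF arrays were apart for Ndufs1. It fell by 0.72 (SE 0.08, adjusted p = 0.000126) against CI and by 0.70 (SE 0.07, adjusted p = 4.29e-05) against Dex.

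Ndufs5, an accessory subunit, followed a graded order instead, with 11.56 and 11.61 in CI, 11.19, 11.15 and 11.29 in Dex and 10.66, 11.11 and 10.83 in TNF. The 3 groups did not overlap, although TNF replicate 2 nearly reached the lowest Dex array. Ndufs5 fell by 0.72 (SE 0.11, adjusted p = 0.00101) in TNF against CI and differed by -0.38 (adjusted p = 0.034) in Dex against CI. The other called genes were Ndufb3, Ndufb6, Ndufb2 and Ndufc1, all membrane-arm accessory subunits, with Ndufa10 and Ndufab1, the mitochondrial acyl carrier protein. Their differences ran from -0.57 to -0.52. Ndufb6 also lost its call without CI replicate 1 (-0.60, adjusted p = 0.0526) or CI replicate 2 (-0.52, adjusted p = 0.0996), Ndufa10 without CI replicate 2 (-0.49), and Ndufab1 without TNF replicate 3 (-0.50). Under quantile normalization Ndufa10, Ndufab1 and Ndufb2 were at -0.48, -0.45 and -0.49 and so not called. Another Ndufa10 probe set (mean 8.65) gave -0.93. Ndufa9 and Ndufb8, often used as protein markers of the complex, differed by -0.39 (adjusted p = 0.00349) and -0.26 (adjusted p = 0.0483), and a dimmer Ndufb8 probe set (mean 8.41) gave -0.74.

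Complex II, which is also the succinate dehydrogenase of the citric acid cycle, had no call among its 4 genes in any of the 3 comparisons with limma. Of all genes 5.23%, 5.67% and 3.16% were called lower in TNF against CI, Dex against CI and TNF against Dex. At an unadjusted p under 0.05 in limma all 4 genes of complex II were lower in TNF against CI and against Dex, a threshold at which all genes were not counted. Its flavoprotein Sdha stood at 12.52 and 12.50 in CI, 12.33, 12.32 and 12.40 in TNF, with 12.73, 12.76 and 12.64 in Dex. Its iron-sulphur subunit Sdhb stood at 12.52 and 12.55 in CI, 11.98, 12.13 and 12.09 in TNF, while Dex had 12.27, 12.27 and 12.43. TNF was lowest in both genes, but Dex was above CI for Sdha (0.20, adjusted p = 0.0774) and below it for Sdhb (-0.21, adjusted p = 0.0944), and neither Dex difference passed the threshold. In TNF against CI, Sdhb, Sdhc, Sdhd and Sdha differed by -0.47, -0.43, -0.27 and -0.16, with adjusted p of 0.00182, 0.00802, 0.0784 and 0.132. Against Dex, all 4 were lower on adjusted p alone, from -0.46 to -0.26, where 10.8% of all genes were. A second bright Sdha probe set (mean 11.78) gave -0.66 in TNF against Dex, -0.32 in TNF and 0.34 in Dex against CI, so the absence of a call for Sdha held for the chosen probe set.

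**Figure D3:**
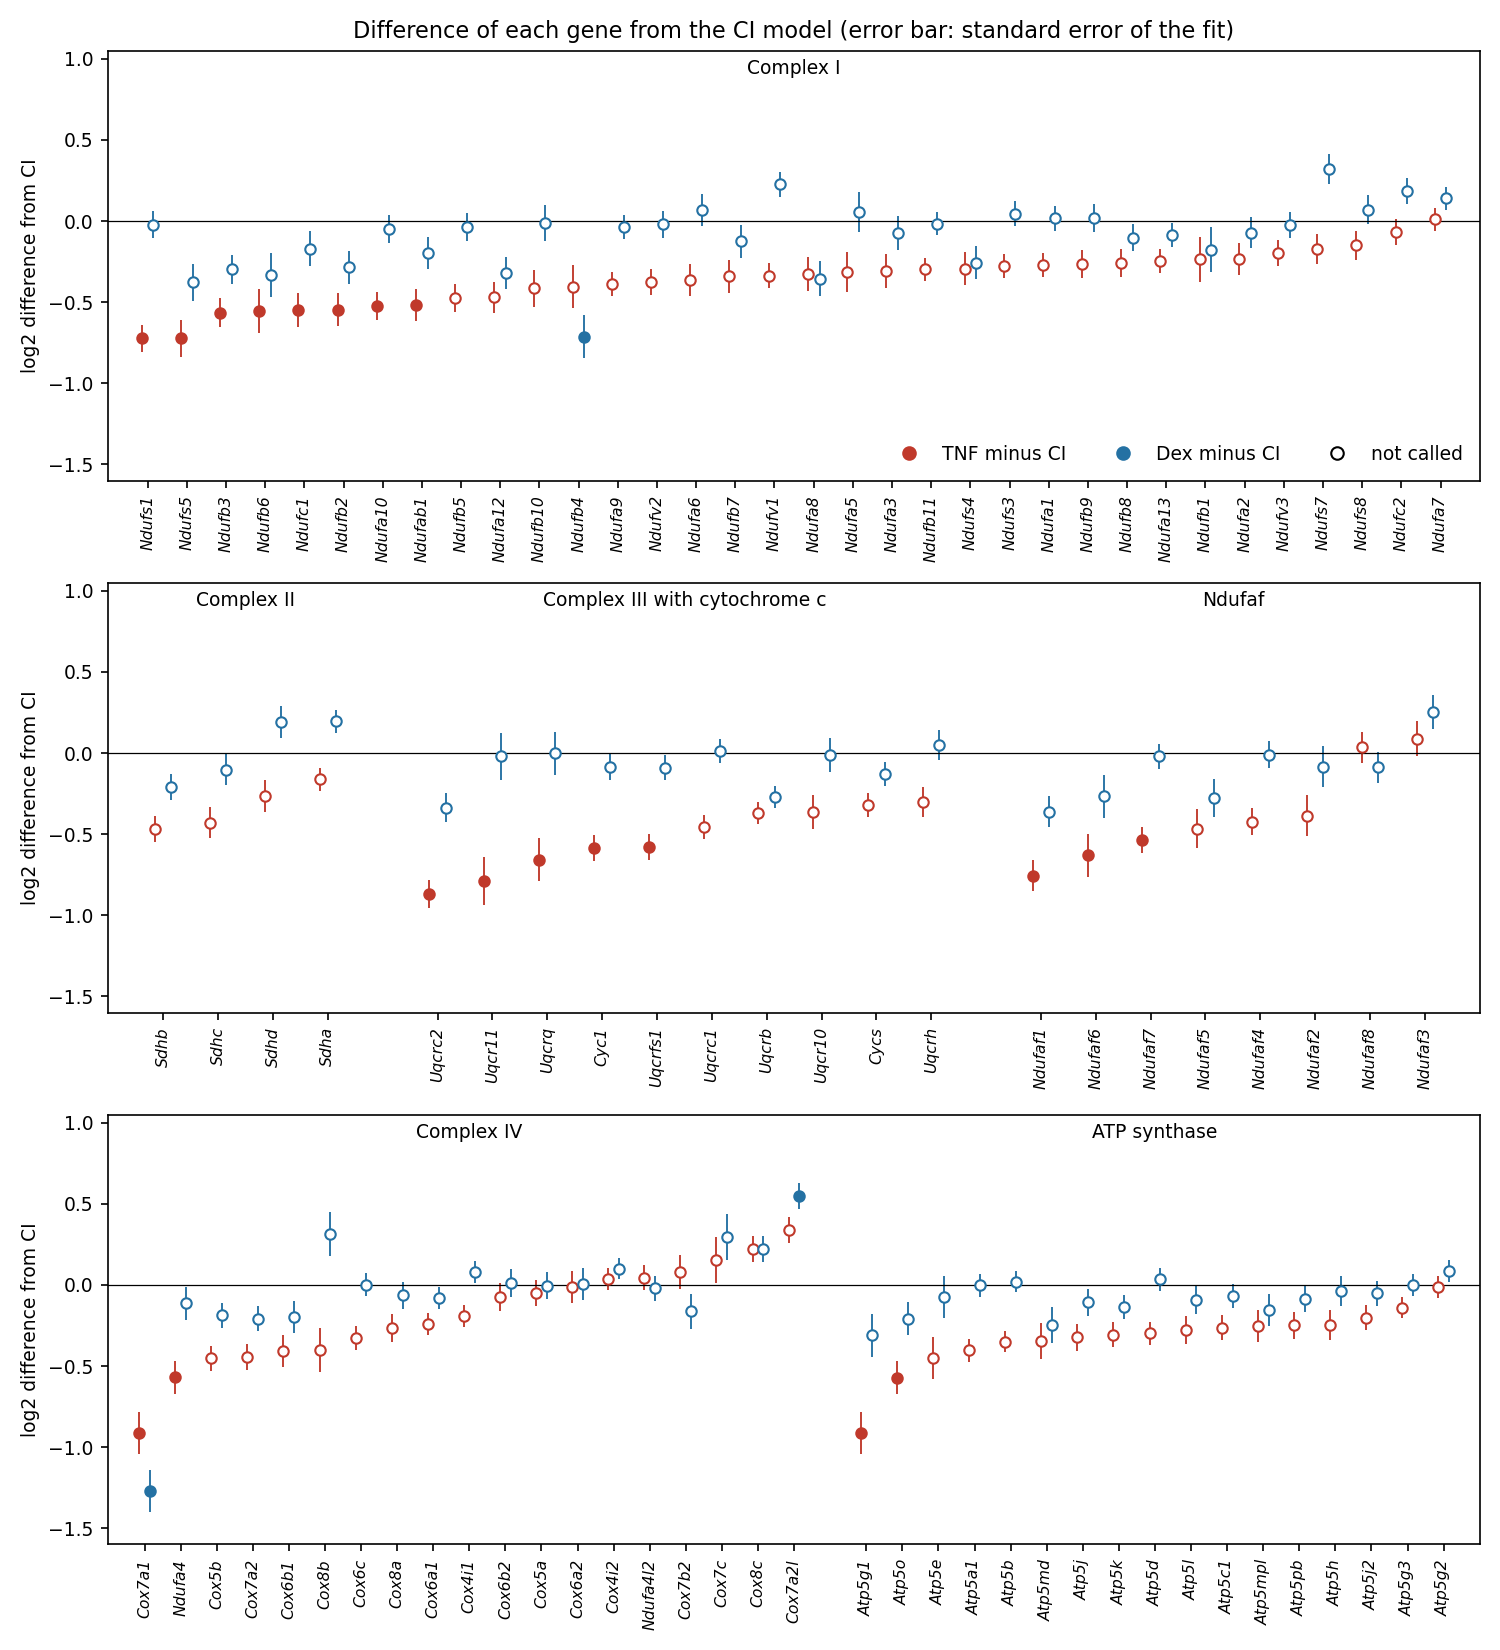
Log2 difference from CI (vertical axis) of each gene in TNF (red) and Dex (blue), by complex and ordered by the TNF difference; error bars are the SE of the fit and filled points were called. Red points lie below zero for nearly all genes of complexes I, II and III and of ATP synthase and for fewer of complex IV, while blue points scatter around zero.

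Complex IV, cytochrome c oxidase, had the smallest median shift and the widest mix over its 19 measured genes, which include dim and tissue-type ones. In TNF against CI 13 of the 19 were negative, where 44.8% of all genes were. Of the 19, 2 (10.5%), Cox7a1 and Ndufa4, were called lower, where 5.23% of all genes were. Ndufa4 read 12.82 and 12.84 in CI, 12.06, 12.40 and 12.33 in TNF, against 12.66, 12.68 and 12.82 in Dex, and fell by 0.57 (SE 0.10, adjusted p = 0.00222). Of the 19, 6 had a signal at or below that of the median gene (7.92), namely Cox4i2, Cox6b2, Cox7a1, Cox7b2, Cox7c and Ndufa4l2, as had Ndufb4 of complex I. Whether such probe sets follow the transcript was not tested, and with these 7 left out 74 of 77 subunits were negative. In TNF against CI the brighter complex IV genes Ndufa4, Cox5b, Cox7a2, Cox6b1, Cox8b and Cox6c differed by -0.57, -0.45, -0.45, -0.41, -0.40 and -0.33. Cox8a, Cox6a1, Cox4i1, Cox5a and Cox6a2 differed by -0.27, -0.24, -0.19, -0.05 and -0.01, and Cox8c and Cox7a2l by 0.22 and 0.34.

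Cox5a and Cox5b encode different nuclear subunits of the enzyme. Cox5a, whose product lies on the matrix side, stood at 13.21 and 13.20 in CI, 13.07, 13.25 and 13.14 in TNF, with 13.16, 13.15 and 13.29 in Dex, so all groups overlapped. Cox5b, whose product is the zinc-binding subunit, stood at 13.70 and 13.67 in CI, 13.16, 13.32 and 13.23 in TNF, against 13.47, 13.46 and 13.57 in Dex, with no overlap between any groups. Cox5a differed by -0.05 (SE 0.08, adjusted p = 0.696) and Cox5b by -0.45 (SE 0.08, adjusted p = 0.00176) in TNF against CI, just short of a call. How far both genes were apart depended on the Cox5a probe set. Another bright Cox5a probe set (mean 13.0) gave -0.40 in TNF and -0.15 in Dex against CI, close to Cox5b, while the third (mean 12.44) gave -0.05 and 0.01. The 3 other bright probe sets of Cox5b gave -0.65 to -0.40 in TNF against CI. Cox4i1, the main regulatory subunit, differed by -0.19 (adjusted p = 0.06), and Cox8a by -0.27 (adjusted p = 0.043).

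Among the subunits above the median gene's signal Cox7a2l and Cox8c were higher than CI on every TNF and every Dex array. Cox7a2l read 11.38 and 11.51 in CI, 11.68, 11.82 and 11.84 in TNF, against 12.02, 12.03 and 11.93 in Dex. CI was lowest, Dex highest, and no groups overlapped. Cox7a2l rose by 0.55 (SE 0.08, adjusted p = 0.000544) in Dex against CI, to 146% of the CI level, and differed by 0.34 (SE 0.08, adjusted p = 0.0122) in TNF against CI. Its other 2 probe sets gave 0.50 and 0.44 for TNF and 0.52 and 0.54 for Dex, while the Dex difference was 0.49 without CI replicate 1 and 0.49 with the median of its probe sets. Cox8c, a testis-type isoform of subunit VIII, read 9.77 and 9.73 in CI, 10.08, 9.90 and 9.92 in TNF, with a mean of 9.97 ± 0.04 (SD, n = 3) in Dex. It differed by 0.22 (adjusted p = 0.0665) in TNF and 0.22 (adjusted p = 0.0692) in Dex against CI, and its other probe set gave 0.50 and 0.41. Cox7a2, the subunit that Cox7a2l resembles, differed the other way, with -0.45 (adjusted p = 0.00231) in TNF and -0.21 (adjusted p = 0.0921) in Dex against CI. Relative to CI, Cox7a2l minus Cox7a2 was 0.78, 0.75 and 0.81 on the TNF arrays and 0.81, 0.85 and 0.61 on the Dex arrays. The 250 upstream bases of Cox7a2l, shown because no other subunit was called higher in any of the 3 comparisons, held none of the 3 motifs searched.

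Cox7a2l (chr17:83514334-83514583, minus strand): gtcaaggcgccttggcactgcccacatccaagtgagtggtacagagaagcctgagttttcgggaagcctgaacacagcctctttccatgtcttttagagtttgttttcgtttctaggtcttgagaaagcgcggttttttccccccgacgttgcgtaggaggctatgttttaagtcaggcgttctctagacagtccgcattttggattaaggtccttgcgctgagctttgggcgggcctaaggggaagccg

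Cox7a1 and Cox8b, isoforms typical of muscle and brown fat, had signals below and close to that of the median gene, with means of 6.08 and 8.01. Cox7a1 stood at 6.73 and 7.07 in CI, 5.79, 6.19 and 5.98 in TNF, with 5.50, 5.63 and 5.76 in Dex. All Dex arrays were below all TNF arrays, and those below CI. It fell by 0.91 (SE 0.13, adjusted p = 0.000572) in TNF and by 1.27 (SE 0.13, adjusted p = 3.86e-05) in Dex against CI. Cox8b, at 7.83 and 8.26 in CI, 7.71, 7.65 and 7.56 in TNF, against 8.13, 8.47 and 8.47 in Dex, had its highest values in Dex and fell by 0.71 (SE 0.12, adjusted p = 0.00132) in TNF against Dex. These calls were kept in all 19 alternative settings. Of 5 brown or beige fat markers 1, Cidea (0.80), was called higher in Dex against CI, where 3.33% of all genes were. The median of the 5 was 0.03 there, and 2 were negative. Ucp1, which defines brown fat, stayed between 6.06 and 6.48 on all arrays.

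ATP synthase had 17 genes, all with a negative TNF against CI difference, where 44.8% of all genes had one. Of the 17, 2 (11.8%) were called lower, where 5.23% of all genes were. The 5 subunits of its F1 head ran from -0.45 to -0.26 in TNF against CI. Atp5a1 and Atp5b, the alpha and beta subunits that form the catalytic sites, differed by -0.40 (SE 0.07, adjusted p = 0.00204) and -0.35 (SE 0.07, adjusted p = 0.00333) in TNF against CI, and by 0.00 and 0.02 in Dex against CI. Atp5b stood at 14.01 and 13.98 in CI, 13.63, 13.66 and 13.65 in TNF, against 14.04, 14.00 and 14.01 in Dex. Such values lie close to the top of the scale, where differences can be compressed. Atp5o, a stalk protein that joins the head to the membrane part, read 13.13 and 13.15, then 12.37, 12.76 and 12.57, then 12.91, 12.91 and 12.97, and fell by 0.57 (SE 0.10, adjusted p = 0.0022) in TNF against CI. Other bright probe sets gave -0.28 and -0.48 for Atp5a1, -0.51 for Atp5d, and -0.46 and -0.68 for Atp5k in that comparison. They gave -0.33 for Atp5h, -0.32 for Atp5j2, -0.62 for Atp5o and -0.59 for Atp5pb.

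Subunit c, which forms the rotating ring of ATP synthase, is made from 3 genes that encode the same mature protein behind different import sequences. Atp5g1 stood at 11.75 and 11.76 in CI, 10.57, 11.09 and 10.87 in TNF, with 11.37, 11.36 and 11.60 in Dex. Atp5g2 stood at 12.29 and 12.27, then 12.22, 12.31 and 12.27, then 12.35, 12.35 and 12.39. Atp5g3 stood at 14.02 and 14.05, then 13.86, 13.92 and 13.90, then 14.04, 14.03 and 14.03. Atp5g1 was lowest in TNF with no overlap between any groups, Atp5g3 lay a little lower in TNF, and the TNF and CI values of Atp5g2 overlapped. Atp5g1 fell by 0.91 (SE 0.13, adjusted p = 0.000591) in TNF against CI, to 53.1% of the CI level, and by 0.60 (SE 0.12, adjusted p = 0.00355) against Dex. Atp5g2 differed by -0.01 (SE 0.07, adjusted p = 0.92) and Atp5g3 by -0.14 (SE 0.07, adjusted p = 0.163) in TNF against CI. Relative to CI, Atp5g1 minus Atp5g3 was -1.02, -0.56 and -0.74 on the TNF arrays and -0.39, -0.40 and -0.15 on the Dex arrays. Another Atp5g2 probe set, with a mean of 7.00 and so below the median gene, gave 0.53 in TNF against CI. The Atp5g1 difference between TNF and Dex was -0.46 without TNF replicate 1 and -0.49 with the median of the gene's probe sets.

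**Figure D4:**
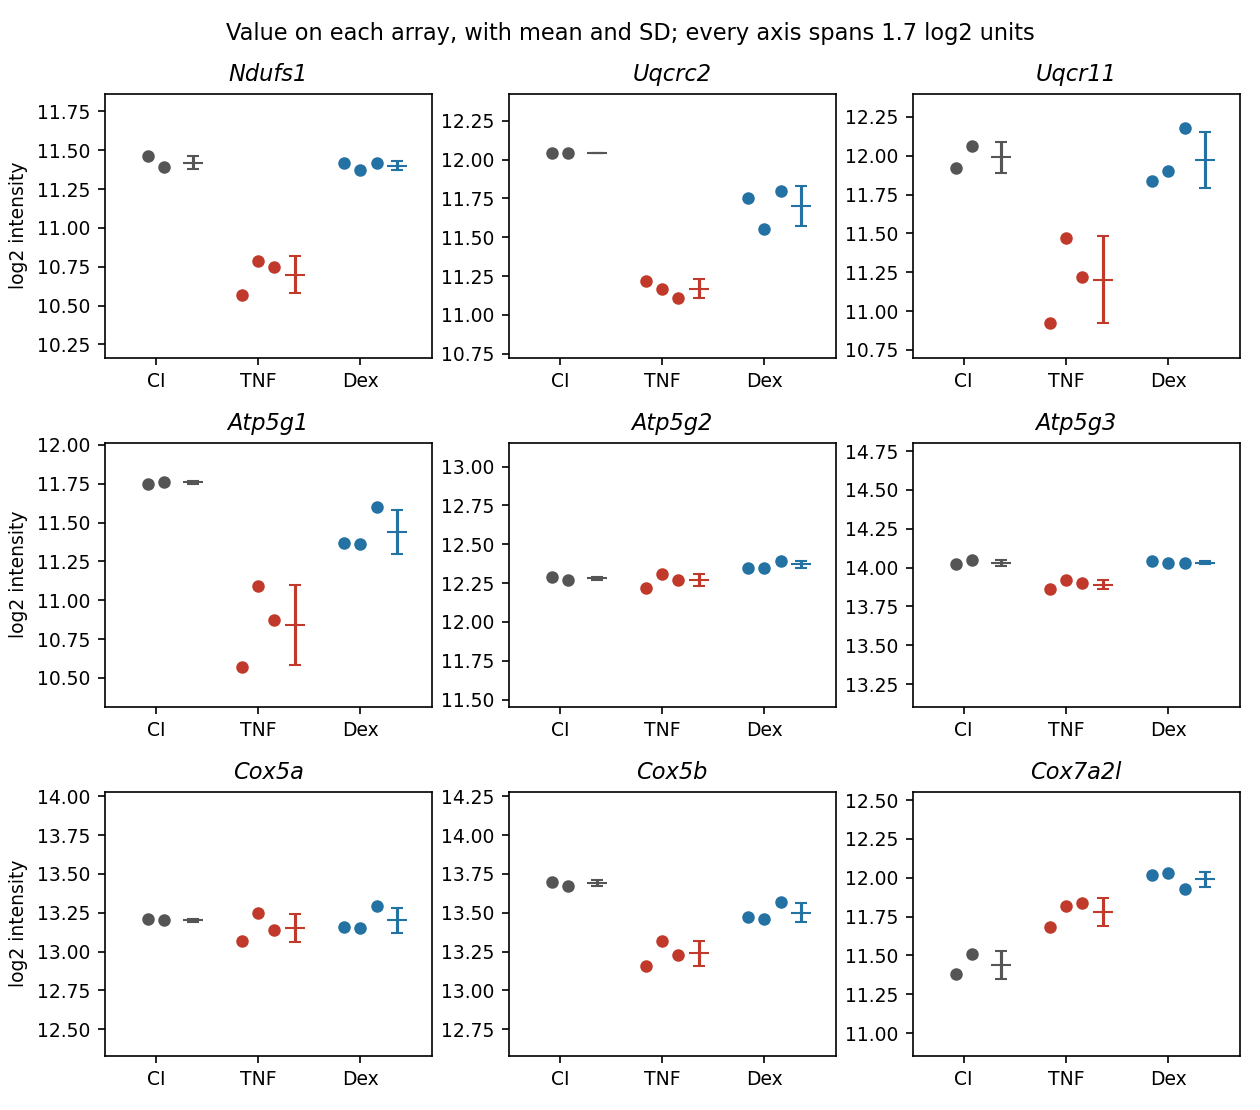
Log2 intensity (vertical axis, each spanning the same range) on each array for 9 genes in CI, TNF and Dex; points are arrays, and the bar beside them is the mean with the SD. Ndufs1, Uqcrc2, Uqcr11 and Atp5g1 are lowest in TNF, Atp5g2 and the chosen probe set of Cox5a change little (a second bright Cox5a probe set gave -0.40 in TNF against CI), and Cox7a2l is lowest in CI.

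The promoters of the 3 subunit c genes are shown because the genes share a product but differed between the models. Each is the 250 bases before the RefSeq start on GRCm38.p6, 5′ to 3′ along the gene. Capitals in Atp5g2 mark a match to GCATGCGC, the core of the site of the factor NRF1, read on both strands and so overlapping itself, that starts 42 bases before the start. Capitals in Atp5g3 mark a match on the reverse strand to TCAAGGTCA, a site of estrogen-related receptors, 52 bases before the start.

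Atp5g1 (chr11:96075632-96075881, minus strand): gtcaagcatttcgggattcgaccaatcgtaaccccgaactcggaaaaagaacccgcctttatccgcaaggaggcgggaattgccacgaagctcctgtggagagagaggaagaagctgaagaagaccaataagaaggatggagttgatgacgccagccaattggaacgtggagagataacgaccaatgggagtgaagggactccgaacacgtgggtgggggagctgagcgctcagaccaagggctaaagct
Atp5g2 (chr15:102671048-102671297, minus strand): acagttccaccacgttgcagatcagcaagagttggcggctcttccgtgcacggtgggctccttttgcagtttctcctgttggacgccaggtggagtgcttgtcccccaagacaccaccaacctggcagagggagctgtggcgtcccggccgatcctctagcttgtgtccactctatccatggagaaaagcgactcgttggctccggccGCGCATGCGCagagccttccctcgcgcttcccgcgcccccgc
Atp5g3 (chr2:73911327-73911576, minus strand): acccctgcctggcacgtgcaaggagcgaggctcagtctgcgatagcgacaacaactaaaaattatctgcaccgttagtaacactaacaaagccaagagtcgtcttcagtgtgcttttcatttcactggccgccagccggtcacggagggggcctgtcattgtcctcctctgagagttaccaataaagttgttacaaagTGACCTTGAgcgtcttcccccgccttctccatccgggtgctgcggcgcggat

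Atp5g1, which fell, held none of the 3 motifs in these letters. Among the 84 subunits 68 had a RefSeq promoter here, and 8 of them (11.8%) held GCATGCGC on either strand, 12 (17.6%) CCGGAAG and 1 (1.47%) TCAAGGTCA. Over the 14369 promoters of genes on the array the shares were 3.98%, 11.8% and 0.376%, and over all 27025 of the table they were 2.56%, 7.83% and 0.422%. A match is a description of these 250 bases and not a bound site.

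Few of these genes were called in Dex against CI. In Dex against CI 2 of 84 subunits (2.38%) were called lower, against 5.67% of all genes, and 1 higher, against 3.33%. On adjusted p alone 8 (9.52%) were lower, against 12.4% of all genes, and 2 higher. Both subunits called lower were dim: Cox7a1, given above, and Ndufb4, which read 7.14 and 7.17 in CI, 6.60, 6.22 and 6.49 in Dex and 6.52, 6.97 and 6.75 in TNF and fell by 0.71 (SE 0.13, adjusted p = 0.0025). Among the 77 subunits above the median gene's signal 0 were called lower in limma, 6 were lower on adjusted p alone and 14 at an unadjusted p under 0.05. The 1 subunit called higher, Cox7a2l, became 0 without CI replicate 1 and 2 without CI replicate 2. Within complex I the 6 core subunits had a median of 0.06 and the 28 accessory subunits a median of -0.08, a difference that was not tested and that did not hold gene by gene: the core subunit Ndufs1 was at -0.02, and the accessory subunits Ndufc2 and Ndufa7 were at 0.19 and 0.14. Ndufs7, the iron-sulphur subunit next to the quinone site, stood at 12.07 and 12.17 in CI and 12.41, 12.47 and 12.46 in Dex, a difference of 0.32 (adjusted p = 0.0273). Ndufv1, which binds NADH, stood at 12.38 and 12.40 in CI and 12.62, 12.60 and 12.64 in Dex, a difference of 0.23 (adjusted p = 0.0582). In both genes the Dex arrays were all above the CI arrays, and neither difference reached a call.

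TNF was also lower than Dex in most of these genes. In TNF against Dex 7 of 84 subunits (8.33%) were called lower, where 3.16% of all genes were, and 0 higher, where 4.14% were, with 3 higher and 62 lower in limma at an unadjusted p under 0.05. On adjusted p alone 43 (51.2%) were lower, against 10.8% of all genes, and in 64 (76.2%) every TNF array was below every Dex array, against 17.9%. The median difference was -0.26, where that of all genes was 0.01. The 7 were Uqcr11, Uqcrq and Uqcrc2 of complex III, Cox8b, Atp5g1, Ndufs1 and Ndufv1. Ndufv1, at 11.94, 12.10 and 12.13 in TNF against the Dex values above, fell by 0.57 (SE 0.07, adjusted p = 0.000142). This count also moved with 1 array, to 12 without TNF replicate 2, which was the highest TNF array in 71 subunits. With the beta-actin covariate it was 11. The comparisons with CI and with Dex share their TNF arrays.

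The Ndufaf assembly factors had median differences of the same signs as the complex I subunits. Of the 8, 3 (37.5%) were called lower in TNF against CI, where 5.23% of all genes were. In Dex against CI 0 were (2 lower there at an unadjusted p under 0.05 in limma), where 5.67% of all genes were. In TNF against Dex 1 was, where 3.16% of all genes were. The median differences of the 8 were -0.44, -0.09 and -0.33, where those of the 34 complex I subunits were -0.33, -0.04 and -0.27. Ndufaf1, which acts early in the assembly of the membrane arm, stood at 10.75 and 10.79 in CI, 9.93, 10.08 and 10.03 in TNF, while Dex had 10.38, 10.26 and 10.58. The 3 groups did not overlap. Ndufaf1 fell by 0.76 (SE 0.10, adjusted p = 0.000268) in TNF against CI, and its Dex difference was -0.36 (adjusted p = 0.0182). Ndufaf7, a methyltransferase for a core subunit, stood at 10.08 and 10.09, then 9.51, 9.64 and 9.50, then 10.09, 9.98 and 10.13, and fell by 0.54 (SE 0.08, adjusted p = 0.000652) against CI and by 0.52 (SE 0.07, adjusted p = 0.000308) against Dex. The latter was -0.50, -0.49 and -0.49 without TNF replicate 1, TNF replicate 3 and Dex replicate 3. Under quantile normalization Ndufaf7 was at -0.46 against CI and -0.49 against Dex. Ndufaf6 was called at -0.63 (adjusted p = 0.0055), but at -0.49 without TNF replicate 1 and -0.52 with an adjusted p of 0.0756 without CI replicate 2 it was not. Ndufaf3 and Ndufaf8 were the exceptions, at 0.09 and 0.04, with overlapping groups.

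Assembly factors outside this family were also mostly lower in TNF. Of 36 measured, 10 (27.8%) were called lower and 0 higher in TNF against CI, where 5.23% of all genes were called lower and 3.00% higher, with 22 lower and 0 higher in limma at an unadjusted p under 0.05, and their median was -0.36. Acad9, which works with Ndufaf1 in building complex I, stood at 10.33 and 10.46 in CI, 9.27, 9.34 and 9.27 in TNF, against 9.91, 9.75 and 9.83 in Dex, with no overlap between any groups. It fell by 1.10 (SE 0.08, adjusted p = 5.72e-06) in TNF and by 0.56 (SE 0.08, adjusted p = 0.000359) in Dex against CI. The latter was -0.50 without CI replicate 2. Cox20 and Cox18, which handle the mitochondrially encoded Cox2 protein, fell by 0.77 and 0.68 in TNF against CI, and with the median of its probe sets Cox20 was at -0.29. In Dex against CI 6 (16.7%) were called lower, where 5.67% of all genes were, and 2 higher, where 3.33% were. The factors of complex II lay on both sides: Sdhaf3 and Sdhaf4 were called at -0.67 and -0.63, Sdhaf1 at 0.57 (adjusted p = 0.00294), and Sdhaf2 differed by -0.15 (adjusted p = 0.214). The other call upward was Uqcc3, for complex III, at 0.58 (0.45 without CI replicate 1). The lower ones also included Cox20 (-0.66), Cox17 (-0.59) and Cox19 (-0.54). With the median of their probe sets Cox20 was at -0.25 and Cox17 at -0.28. Cox17 was at 0.02 with probe sets lacking a suffix for possible cross-hybridisation. Cox19 was at -0.47 without Dex replicate 1 and -0.48 under quantile normalization. In TNF against Dex 3 (8.33%) were called lower, where 3.16% of all genes were, among them Tmem70, which helps to assemble ATP synthase, at -0.68 (adjusted p = 2.6e-05), and Foxred1, for complex I, at -0.54. Foxred1 was at -0.49 without TNF replicate 1 and -0.48 without Dex replicate 3, and the third, Acad9 (-0.54), was at -0.50 without Dex replicate 1 and -0.19 with the median of its probe sets.

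Of the mitochondrially encoded subunits listed, ND5 alone was measured here. ND5, a proton-pumping subunit of complex I, stood at 13.51 and 13.57 in CI, 13.35, 12.81 and 12.68 in TNF, with 13.49, 13.56 and 13.25 in Dex. Its highest TNF value was on TNF replicate 1, the array that was lowest for most nuclear-encoded subunits. ND5 was called at -0.59 (SE 0.17, adjusted p = 0.024) in TNF against CI, but when CI replicate 1, CI replicate 2, TNF replicate 2 or TNF replicate 3 was left out its adjusted p was 0.088, 0.138, 0.0706 and 0.0802, at -0.63, -0.56, -0.53 and -0.46.

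Synthesis of coenzyme Q, the electron carrier between complexes I, II and III, had 5 of 12 genes (41.7%) called lower in TNF against CI, where 5.23% of all genes were. Its median was -0.45 and all 12 differences were negative, against 44.8% of all genes. Coq3, a methyltransferase of the pathway, stood at 10.53 and 10.55 in CI, 9.57, 9.77 and 9.62 in TNF, while Dex had 10.19, 10.19 and 10.45. It fell by 0.88 (SE 0.10, adjusted p = 9.8e-05) in TNF against CI and by 0.62 against Dex. The hydroxylases Coq7 and Coq6 fell by 0.77 and 0.66 against CI. In Dex the regulator Coq8a stood apart, at 10.28, 10.27 and 10.17 against 9.35 and 9.43 in CI and 9.39, 9.28 and 9.45 in TNF, a rise of 0.85 (SE 0.08, adjusted p = 1.74e-05) in Dex against CI. In TNF against Dex all 12 differences were negative, against 48.3% of all genes, and 7 were lower on adjusted p alone, against 10.8%. Of the 12, 5 were called lower, against 3.16% of all genes, among them Coq8a (-0.86) and Coq9 (-0.68, or -0.41 with the median of its probe sets). Pdss2, called lower in TNF against CI and against Dex, was at -0.16 and 0.06 with the median of its probe sets. Coq10b, called lower in Dex against CI at -0.50 (adjusted p = 0.00318), was at -0.44 without CI replicate 1 and -0.44 without Dex replicate 1, and -0.45 under quantile normalization.

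The 20 regulators of mitochondrial biogenesis had a TNF against CI median of -0.07, with 3 called lower and 0 higher in limma (2 higher at an unadjusted p under 0.05). These 3 were 15% of the list, where 5.23% of all genes were called lower and 3.00% higher. Ppargc1a, the coactivator that drives respiratory gene expression, stood at 8.57 and 8.83 in CI, 8.23, 7.80 and 8.01 in TNF, against 8.25, 8.30 and 8.07 in Dex. It fell by 0.68 (SE 0.13, adjusted p = 0.00284) in TNF against CI, and its Dex difference was -0.49 (adjusted p = 0.0165). With the median of its probe sets the TNF difference was -0.31. The related Ppargc1b was instead highest in Dex, at 10.83, 10.68 and 10.81 against 10.07 and 10.30 in CI and 10.42, 10.33 and 10.38 in TNF, and rose by 0.58 (SE 0.09, adjusted p = 0.000614) in Dex against CI, or 0.47 without CI replicate 1. Esrra, which encodes an estrogen-related receptor, differed by -0.48 (adjusted p = 0.00699) in TNF against CI. Nrf1, Gabpa and Tfam, factors with known sites in respiratory genes or mitochondrial DNA, differed by -0.08, 0.35 (adjusted p = 0.0194) and 0.06.

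Of 2 related factors of mitochondrial gene expression, Tfb1m, which modifies ribosomal RNA, fell by 0.96 (SE 0.09, adjusted p = 2.64e-05) in TNF and by 0.56 in Dex against CI (-0.48 without Dex replicate 2 and -0.50 with the median of its probe sets). Tfb2m, which acts in transcription, stood at 9.77 and 9.76 in CI, 9.69, 9.71 and 9.71 in TNF, with 10.67, 10.32 and 10.46 in Dex. It rose by 0.72 (SE 0.09, adjusted p = 0.000237) in Dex against CI and fell by 0.77 in TNF against Dex, where Polg, the mitochondrial DNA polymerase, was also called at -0.63 (-0.30 with the median of its probe sets). Nrip1, a corepressor of oxidative genes, fell by 1.13 (SE 0.21, adjusted p = 0.00289) in TNF against CI.

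Of 20 genes of the mitochondrial membranes, import and matrix, 5 were called lower and 0 higher in TNF against CI in limma (11 lower and 0 higher at an unadjusted p under 0.05), where 5.23% and 3.00% of all genes were called, with a median of -0.23. The cristae proteins Chchd3 and Immt fell by 0.79 and 0.73, and Letm1, an inner membrane ion exchange protein, by 0.85, although with the median of all probe sets of a gene Chchd3 was at -0.33 and Letm1 at -0.11. In TNF against Dex Letm1 and Immt were called at -0.56 and -0.54, and were at -0.49 and -0.48 without TNF replicate 1. With the median of all Letm1 probe sets that difference was 0.01. Among 13 uncoupling proteins and carriers 1 (7.69%) was called lower in TNF against CI, a share near the 5.23% of all genes, and 1 higher in Dex against CI, where 3.33% of all genes were. They were Slc25a20, the carnitine carrier (-0.51), which was at -0.39 without CI replicate 2 and -0.45 without TNF replicate 1, and Ucp3 (0.57). All these lists were chosen with earlier results of these data known, and their counts are descriptions.

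A second reading of the same genes came from the 90 probe sets of 50 subunit genes that were not chosen. Of the 63 whose signal was above the median gene, 58 were lower and 5 higher in TNF against CI, with a median of -0.37. Of the 27 dimmer ones, 10 were lower and 17 higher, with a median of 0.06. Against Dex the brighter probe sets were lower in 61 of 63.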

How the data were processed

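Total RNA of the 8 samples had been extracted with a Qiagen kit, labelled with biotin and hybridised by the study. The authors deposited probe set intensities on a linear scale, 6.14 to 24273.6, for 45101 probe sets. The study's methods name RMA in affyPLM for this array type; that the deposited values are RMA values with the logarithm removed was inferred from them. The design had assumed log2 values, so the values were log2-transformed, without a pseudocount, before the planned test. Arrays have no read depth. Genes were named from the platform annotation (34958 probe sets with 1 symbol, 932 with several, 9211 with none), and each gene was read at its brightest single-symbol probe set, by the mean of all 8 arrays. Of the 92 genes 52 had several probe sets, and 18 chosen probe sets had a suffix marking possible cross-hybridisation. A further 8 names found only in probe sets with several symbols were not used here. RefSeq promoters (GRCm38.p6) were found for 75 of the 92 genes.

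The 3 groups were fitted together with limma 3.58.1 in R 4.3.3 (lmFit and eBayes, two-sided moderated test, Benjamini-Hochberg adjustment over 18194 genes). The genes, lists and tests were chosen with earlier results of these data known. Genes named were, per comparison, up to 4 called genes of each complex with the largest difference and no overlap between groups, up to 3 called genes of each list, genes called against the direction of most, and a fixed set of core subunits, isoforms and regulators; genes outside that rule (such as Cox8c, Sdhaf1, Sdhaf2, Uqcc3, Ndufs7, Ndufaf3, Ndufaf8, Ndufa10, Ndufab1, Ndufb2 and Ndufc1) were named after their values were seen. The alternatives were quantile and median scaling, leaving out low genes, 2 other ways to pick probe sets, testing all probe sets, a block for the replicate number, fits of the groups compared only, other eBayes settings, array weights, a beta-actin covariate, other thresholds, leaving out each array in turn and, added after the data had been seen, subunits above the median gene's signal alone. On simulated data for TNF minus CI, with 18194 genes, 93% of 100 genes were recovered at a change of 0.75 and 100% of another 100 at 1.5. The simulated noise was independent between genes, unlike the shared shift of TNF replicate 1, and smaller changes were not simulated. Figures were drawn with Python 3.11.15 and matplotlib 3.10.9.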

Additional observations from a re-analysis of the deposited data

How the results depend on the processing

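Across the alternatives the median difference of the subunits stayed negative in all 3 comparisons and moved by less than the spread between replicates. The number of subunits called lower in TNF against CI was 56 on adjusted p alone and the number called higher 1. The latter was also 1 with the median of a gene's probe sets (Atp5g2) and 1 with probe sets without shared suffixes. For Dex against CI, 8 were lower and 2 higher on adjusted p alone, 0 higher with the median of probe sets, 2 higher without shared suffixes, and 0 lower among subunits above the median gene's signal. For TNF against Dex, 43 were lower on adjusted p alone and 11 with the beta-actin covariate. Leaving out 1 array gave 10 to 23 subunits lower and a median of -0.37 to -0.26 in TNF against CI, 2 lower, 0 to 2 higher and a median of -0.09 to -0.03 in Dex against CI, and 6 to 12 lower and a median of -0.29 to -0.19 in TNF against Dex. With the replicate number as a block, 18 subunits were lower in TNF against CI (median -0.34), 2 lower and 1 higher in Dex against CI (-0.08) and 7 lower in TNF against Dex (-0.26). Whether the numbers pair the arrays was not settled. Deviations from the group means correlated at -0.09 to 0.33 for same-numbered arrays of different groups and at -0.38 to 0.28 for the others. Within a group of 2 or 3 arrays such deviations sum to zero, so these correlations cannot decide it. Among single genes, Atp5g2 was called higher in TNF against CI with the median of probe sets (0.5302, adjusted p = 0.00834 in limma). Under that rule Uqcrq was at 0.0393 in TNF against CI and Letm1 at 0.0101 in TNF against Dex. Without shared suffixes Uqcrq was at 0.0565 in TNF against CI and 0.0859 in TNF against Dex. The causes were not tested beyond the choice of probe set that these settings change. The signal of 7 subunits at or below the median gene, and of the brightest ones near the top of the scale, limits what their differences can show.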
